A study of Mus musculus with 6 samples.

Results

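Lymphatic identity transcription factors were followed in endothelial cells of the mouse small intestine, as 9 genes chosen by name: Prox1, Sox18, Nr2f2, Nr2f1, Tbx1, Maf, Foxc1, Foxc2 and Gata2. Each of the 9 was represented by 1 probe, out of 56605 probes other than controls, and all 9 were among the 14971 named genes that were tested. CD45- CD31+ cells were sorted into CD90- vascular endothelial cells (VECs) and CD90+ lymphatic endothelial cells (LECs) of female mice, with at most 10000 cells per sample, and Agilent arrays with 1 color were run for 3 samples per population (VEC 2, 3 and 4, and LEC 6, 7 and 8). The description field names VECs for all samples, while titles and source names separate the populations and were used for the grouping. Treatment, genotype, strain and age of the mice used for the arrays are not given in the sources used here, nor whether each sample came from its own mice, and p-values therefore measure the spread between these samples only.

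During development of the lymphatic system, SOX18 and the nuclear receptor COUP-TFII (Nr2f2) act in venous endothelial cells upstream of the homeodomain factor PROX1, which specifies lymphatic endothelium and maintains it in the adult. FOXC2 and GATA2 are known for their part in the formation of lymphatic valves, and Foxc1 is the close paralog of Foxc2. TBX1 regulates the VEGFR-3 gene in lymphatic endothelium, Maf encodes a basic leucine zipper factor, and Nr2f1 encodes COUP-TFI, the paralog of COUP-TFII.

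The RefSeq promoter table (GRCm38.p6) held 10 start sites for 6 of the 9 genes; Sox18, Maf and Foxc2 were not matched. The 250 bases before the outermost start are shown for Prox1, the factor on which the identity rests, for the paralogs Nr2f2 and Nr2f1, which rose together, and for Gata2, which fell. Capitals mark letters that match 1 of the 7 motifs searched.

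Prox1, chr1:190170828-190171077, minus strand: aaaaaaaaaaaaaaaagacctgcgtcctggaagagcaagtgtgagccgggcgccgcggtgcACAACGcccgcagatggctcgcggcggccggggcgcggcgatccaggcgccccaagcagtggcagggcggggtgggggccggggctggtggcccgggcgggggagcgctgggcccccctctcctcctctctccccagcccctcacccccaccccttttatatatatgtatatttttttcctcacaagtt
Nr2f2, chr7:70366747-70366996, minus strand: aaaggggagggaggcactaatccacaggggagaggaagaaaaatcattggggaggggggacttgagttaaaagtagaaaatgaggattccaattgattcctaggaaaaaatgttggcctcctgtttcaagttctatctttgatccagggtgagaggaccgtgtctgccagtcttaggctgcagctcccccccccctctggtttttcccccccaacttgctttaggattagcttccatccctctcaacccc
Nr2f1, chr13:78198874-78199123, minus strand: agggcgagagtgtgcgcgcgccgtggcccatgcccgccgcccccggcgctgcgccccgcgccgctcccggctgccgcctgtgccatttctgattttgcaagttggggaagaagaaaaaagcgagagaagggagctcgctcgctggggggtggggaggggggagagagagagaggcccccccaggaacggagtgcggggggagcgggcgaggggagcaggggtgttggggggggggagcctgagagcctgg
Gata2, chr6:88193641-88193890, plus strand: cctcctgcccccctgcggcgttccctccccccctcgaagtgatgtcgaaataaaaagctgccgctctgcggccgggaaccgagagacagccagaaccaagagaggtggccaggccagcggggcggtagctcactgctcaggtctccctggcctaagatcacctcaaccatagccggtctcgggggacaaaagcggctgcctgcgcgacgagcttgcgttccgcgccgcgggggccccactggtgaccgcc

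The motifs were searched on both strands with the letters GATAAG for GATA factors, ACAANG for SOX factors, AGGTCA for nuclear receptors, GGTGTG for T-box factors, TGCTGAC for MAF factors, TAAACA for forkhead factors and CCGGAA for ETS factors; a match is a description of letters, and overlapping matches were kept. SOX letters were in 3 of the 10 windows (both Prox1 starts and the inner Nr2f1 start), and in 36.3% of all 32851 windows of the table. Forkhead letters were in 2 windows (the inner starts of Prox1 and Nr2f1), against 12.03% of all, and in the inner Nr2f1 window they overlapped the SOX letters. ETS letters were in the window of Foxc1, against 12.03% of all, and the GATA, nuclear receptor, T-box and MAF letters were in 0 of the 10. G and C made up 39.6% to 74.0% of the 10 windows, with a median of 52.4% over all windows.

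The array signals are the intensities that the scanner software gave after its own background subtraction. No spot was saturated, and the lowest signal called well above background was 12.1 to 25.1 units, depending on the array. All 9 factors were well above background on all 6 arrays. For the comparison, log2 signals minus the 75th percentile of each array were fitted with limma over 33776 probes, two-sided, with Benjamini-Hochberg adjustment and a threshold of 0.05. The sort was described with marker lists: 7 of 7 lymphatic markers were higher in LECs and 7 of 7 blood vascular markers were lower. Among all tested genes, 34.9% were called higher and 32.0% lower. The lists were chosen with earlier results of these data known. The study had reported Pdpn, Lyve1 and Reln from these same arrays, so the lists are not an independent check. The lymphatic markers include Thy1, which encodes CD90, so that its direction was set by the sort. The summed signal of the lymphatic markers on VEC arrays was 0.147% of that on LEC arrays (0.157% without Thy1), and that of the blood vascular markers on LEC arrays was 2.99% of that on VEC arrays. Of 7 pan-endothelial markers, 6 were lower in LECs (among them Pecam1, 2.68-fold, and Tek, 2.73-fold) and Cldn5 was 4.28-fold higher, with a median log2 difference of -0.65 and summed signals of 127494 to 165157 in LECs and 152877 to 168836 in VECs. In sorted bulk samples, fewer cells of a type and less RNA per cell cannot be told apart.

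Of the 9 factors, 7 were higher in LECs (Tbx1, Maf, Prox1, Nr2f1, Nr2f2, Foxc2 and Foxc1) and 2 were lower (Gata2 and Sox18). Among all tested genes, 66.9% passed the same test, 34.9% toward LECs and 32.0% toward VECs (64.0%, 31.2% and 32.8% of all tested probes), so a call alone is common in this comparison. Differences over 5-fold toward LECs were found for 6 of the 9, against 4.69% of tested genes. The median log2 difference was 3.65 over the 9 factors and 0.017 over all tested genes. Since the 9 were chosen with earlier results of these data known, these contrasts are given as description. After scaling, the arrays of the populations did not overlap for any of the 9: all LEC arrays lay above all VEC arrays for 7, as for 39.1% of tested genes, and below them for 2, as for 35.9%.

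**Figure D1:**
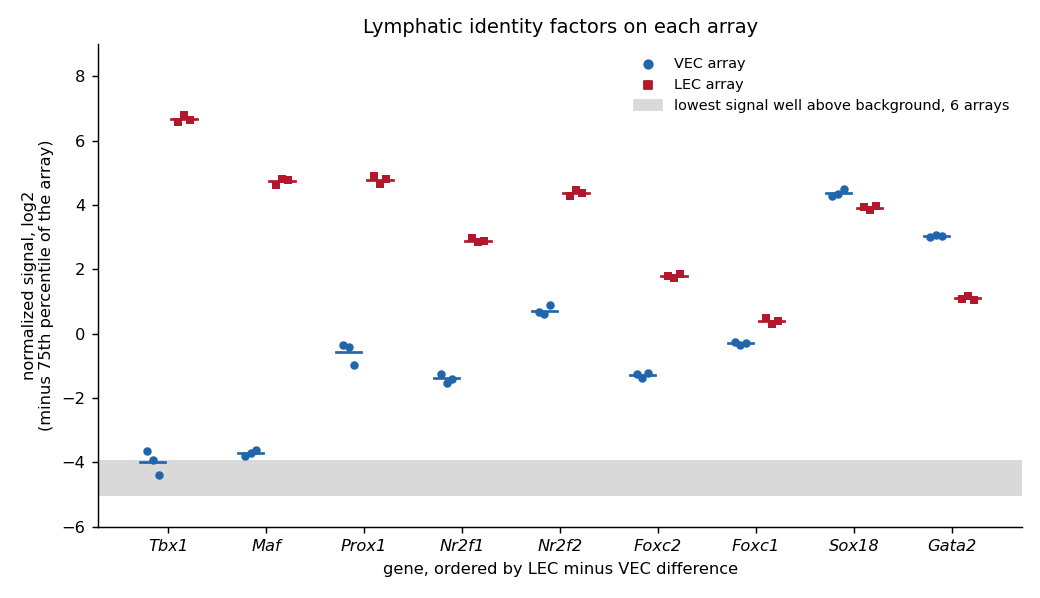
Normalized log2 signal of the 9 factors on the 3 VEC arrays (blue circles) and the 3 LEC arrays (red squares); colored lines mark the mean of each group, and gray shading covers the dimmest signals that the 6 arrays called well above background. Tbx1 and Maf lie in or just above the shading in VECs and far above it in LECs, whereas Sox18 and Gata2 are lower in LECs; heights of different genes come from different probes and are not comparable.

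Prox1, the homeodomain factor of lymphatic endothelium, gave signals of 12776, 9596 and 12382 on LEC arrays 6, 7 and 8, and of 285, 249 and 189 on VEC arrays 2, 3 and 4. Every LEC array was thus far above every VEC array, and the VEC signals were still 13.7 to 23.6 times the lowest signal well above background of their arrays. Its normalized log2 signal averaged 4.78 ± 0.12 for the LEC arrays against -0.58 ± 0.35 for the VEC arrays (SD, n = 3 each), 41.3-fold apart with a log2 difference of 5.37 (standard error 0.18, limma adjusted p = 3.7e-06). The spread among VEC arrays exceeded the median within-group SD of 0.13 over tested probes, with VEC 4 the lowest. By the scaled log2 means, Prox1 in VECs was at 2.42% of its level in LECs. The 0.147% of the summed lymphatic markers is a ratio of unscaled signals and thus an unlike measure. By the scaled log2 difference, Prox1 ranked 144th of 14971 genes toward LECs.

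Nr2f2 and Nr2f1, the COUP-TF receptors, rose together. Nr2f2 signals were 8365, 8368 and 9073 in LECs and 579, 504 and 691 in VECs, a 12.5-fold difference (standard error 0.097 on the log2 scale, limma adjusted p = 1.5e-06). For Nr2f1, they were 3363, 2733 and 3217 in LECs and 152, 116 and 143 in VECs, 19.4-fold apart (standard error 0.088 on the log2 scale, limma adjusted p = 7.4e-07). Both were separate between the populations on every array and clearly measured in VECs, where Nr2f2 was 35.4 to 49.9 times and Nr2f1 8.16 to 12.6 times the lowest signal well above background. Their relative Nr2f6 did not pass, with a log2 difference of -0.03 (standard error 0.064, limma adjusted p = 0.68). The probe sequences were not among the columns used here, so cross-hybridization between these paralogs could not be checked.

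Tbx1, the T-box factor, and Maf, a basic leucine zipper factor, showed the widest gaps. Tbx1 reached 40939, 42471 and 43889 on the LEC arrays and only 28.8, 21.99 and 17.8 on the VEC arrays. These VEC signals were 1.28 to 2.38 times the lowest signal well above background, and the scanner software gave them errors of 3.40 to 3.85 units. The measured log2 difference of 10.66 (standard error 0.20, limma adjusted p = 5.6e-07) ranked 7th of 14971 genes toward LECs. It was 8.75 when the background was instead corrected by normexp on the median signals. Maf gave 10656, 10749 and 12021 in LECs and 26.1, 25.3 and 30.9 in VECs, where it was 1.78 to 2.23 times the lowest signal well above background. Its log2 difference was 8.44 (348-fold, standard error 0.085, limma adjusted p = 4.6e-07), the 26th largest toward LECs, and 6.96 with normexp. The normexp setting added an offset of 50 units to every signal, which exceeds the VEC signals of both genes and by itself makes their folds smaller. The sizes of both differences thus depend on this setting, and its offset and its background estimate were not told apart. The direction and call of both genes did not change.

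Besides the probes matched by RefSeq accession, 3 probes carry a member's name in the annotation used by the study, which listed them because they differed here, so they are given as description. The additional Prox1 probe gave 7758, 7258 and 9070 in LECs and 186, 176 and 174 in VECs, 38.2-fold apart. Of the additional Maf probes, the brighter gave 5422, 6016 and 6512 in LECs and 32.3, 28.8 and 27.3 in VECs, 173-fold apart. No VEC array had the dimmer well above background, and the LEC arrays, at 445, 492 and 479, were at least 30.2-fold higher.

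The forkhead paralogs differed in size. Foxc2 signals were 1504, 1260 and 1581 in LECs and 153, 127 and 161 in VECs, an 8.42-fold difference (standard error 0.074 on the log2 scale, limma adjusted p = 1.1e-06). Foxc1 gave 611, 474 and 575 in LECs and 304, 260 and 307 in VECs, a 1.62-fold difference (standard error 0.075 on the log2 scale, limma adjusted p = 3.9e-04). No LEC array overlapped a VEC array for either gene, but the Foxc1 difference was small for this comparison, ranking 2631st of 14971 genes toward LECs against 497th for Foxc2.

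Gata2, a zinc finger factor of lymphatic valves and of hematopoietic cells, went the other way. Its signals were 913, 848 and 920 in LECs and 2879, 2786 and 3061 in VECs, 3.81-fold below VECs, with a log2 difference of -1.93 (standard error 0.061, limma adjusted p = 2.9e-06). The replicates lay close together, with SDs of 0.050 in LECs and 0.037 in VECs on the log2 scale. By the scaled log2 means, Gata2 in LECs was at 26.3% of its level in VECs. The unscaled LEC signals were 33.7 to 69.4 times the lowest signal well above background, so Gata2 was measured in both populations.

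Sox18, which encodes the SOXF factor upstream of PROX1, showed the smallest difference. Signals were 6639, 5484 and 6899 in LECs and 7014, 6684 and 8533 in VECs. Before scaling between arrays these values overlapped, since LEC 8 lay above VEC 3, and after scaling they were separate. The scaled log2 difference was -0.45 (standard error 0.084, limma adjusted p = 0.0042), 1.37-fold lower in LECs. Without scaling it was -0.22 and did not pass (limma adjusted p = 0.22), while the median difference over all tested probes moved from -0.03 to 0.20. All arrays were on 1 slide and shared 1 scan day, and row 1 of the slide held the 3 VEC arrays and LEC 6. With LEC 6 alone against the VEC arrays of that row, the log2 difference was about as large, at -0.43, and with 1 LEC array it did not pass (limma adjusted p = 0.077). With the row as a block it passed (limma adjusted p = 0.042). Of the 7 pan-endothelial markers, 6 were also lower in LECs, with log2 differences from -1.45 for Tek to -0.48 for Erg. Cldn5 was higher, at 2.10. The part of these markers in the Sox18 difference was not tested. Sox18 was bright in LECs, at 218 to 505 times the lowest signal well above background.

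Ordered by the difference between LECs and VECs, the factors ran from Tbx1 over Maf, Prox1, Nr2f1, Nr2f2, Foxc2, Foxc1 and Sox18 to Gata2. This order was kept in 21 of 21 alternatives for 8 of 8 neighboring pairs. The steps, taken within arrays as the log2 ratio of a factor to the next, have a direction that the ordering itself fixed, and they were 2.22 from Tbx1 to Maf, 3.07 from Maf to Prox1 and 1.09 from Prox1 to Nr2f1. They were narrow between Nr2f1 and Nr2f2 (0.63, standard error 0.13) and between Nr2f2 and Foxc2 (0.57, standard error 0.096), and with normexp these steps were 0.20 and 0.89. No test is given for the steps, since 3 arrays against 3 cannot go below p = 0.1 in an exact two-sided permutation test.

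**Figure D2:**
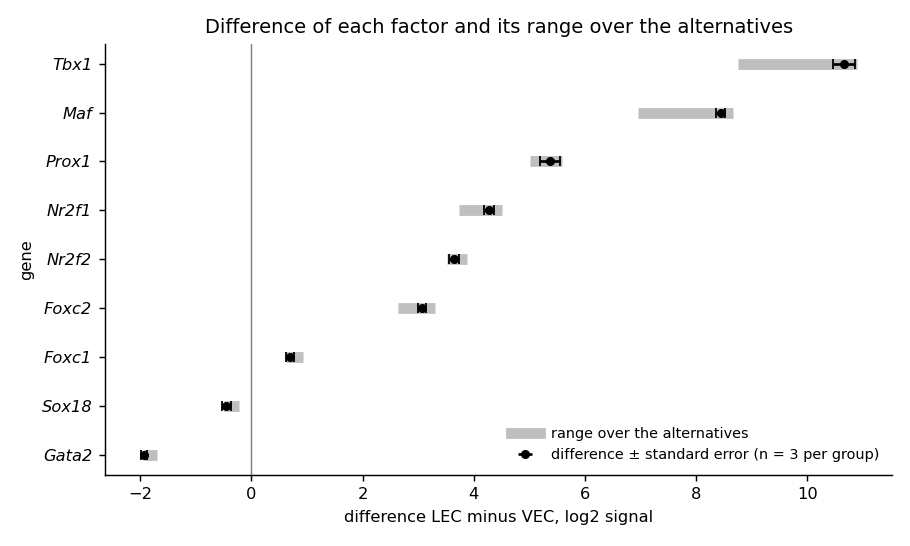
Log2 difference of each factor between LECs and VECs (points, with the standard error, n = 3 per group) and its range over 21 alternatives in the processing (gray bars). For the 7 genes higher in LECs no bar crosses 0, the bars of Tbx1 and Maf reach furthest down, to 8.75 and 6.96, and the bar of Sox18 ends at -0.22.

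Relatives of the factors within their families mostly did not share the rise. Of 24 relatives, 18 were tested: 2 rose in LECs, 9 fell and 7 missed the threshold, beside 34.9% higher and 32.0% lower among all tested genes. The median log2 difference of the relatives was -0.32. The SOXF genes Sox17 (31.6-fold) and Sox7 (7.57-fold), which act in arterial and other blood vascular endothelium, were also lower, with log2 differences of -4.98 and -2.92 beside -0.45 for Sox18, which were not tested against each other. Sox17 signals were 176, 195 and 194 in LECs and 5066, 4702 and 5543 in VECs. The forkhead gene Foxf1 was 25.8-fold lower, at 310, 317 and 303 in LECs and 7210, 6641 and 6674 in VECs, and the T-box gene Tbx3 was 9.24-fold lower (limma adjusted p of these 4 genes at most 4.3e-06). Foxl1, for which no VEC array was well above background, rose at least 4.79-fold, and Mafg was 1.52-fold higher (limma adjusted p = 1.7e-04 and 0.0041). With normexp Foxl1 was 1.74-fold higher, and within row 1 of the slide, with 1 LEC array, Mafg was 1.30-fold higher and did not pass (limma adjusted p = 0.053). Prox2, with a log2 difference of -0.17, did not pass (limma adjusted p = 0.22). The GATA genes Gata3 and Gata6 were lower like Gata2 (4.55-fold and 3.55-fold, limma adjusted p = 0.0014 and 8.7e-06), and Gata5 did not pass.

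**Figure D3:**
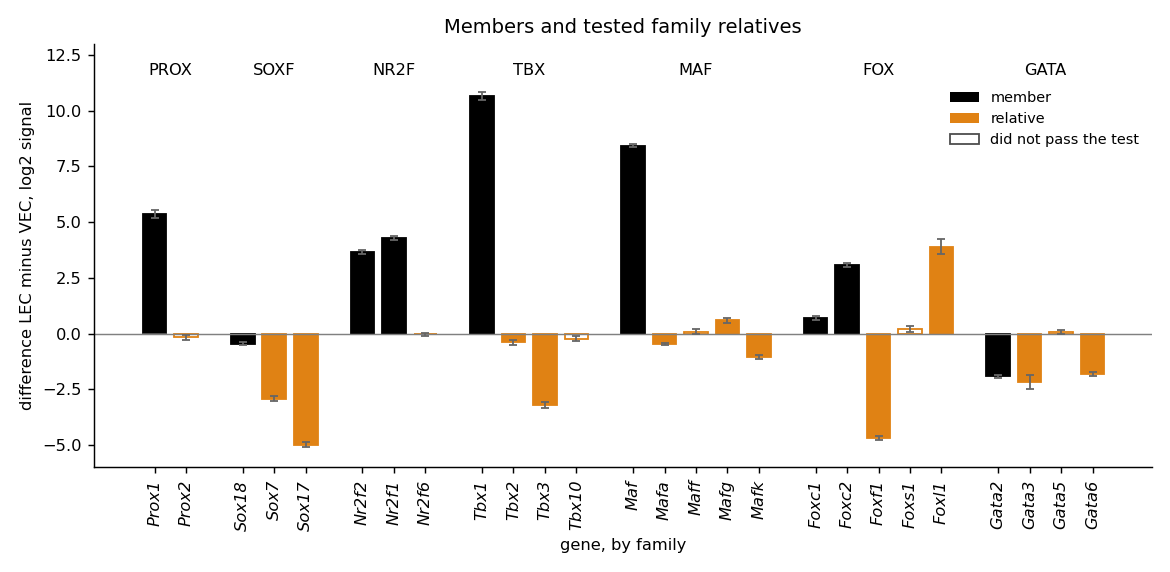
Log2 difference between LECs and VECs (bars, with the standard error, n = 3 per group) of the members (black) and tested relatives (orange, not all drawn), grouped by family; open bars did not pass the test. Relatives of Tbx1, Maf and Prox1 lie between -3.21 and 0.60, Foxf1 points opposite to Foxc2, and the bar of Foxl1 rests on VEC signals not well above background.

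Around the factors, genes known to depend on PROX1 or to mark lymphatic differentiation were higher in LECs in 10 of 17 cases, lower in 6, and 1 did not pass. Over all tested genes, 34.9% were called higher and 32.0% lower. The median log2 difference of the list was 1.74, against 0.017 over all tested genes. Reln, for which no VEC array was well above background, was at least 4362-fold higher by its brighter probe and at least 184-fold by the other. The matrix gene Mmrn1 was 2976-fold and the VEGFR-3 gene Flt4 11.8-fold higher. Podoplanin (Pdpn), well above background on 1 VEC array, was 2799-fold higher as measured. With normexp the values were 828-fold for Reln, 1046-fold for Mmrn1 and 278-fold for Pdpn. Vegfc (19.4-fold), Fgfr3 (9.82-fold) and the cyclin gene Ccne1 (3.86-fold) were lower, and the receptor gene Tie1 had a log2 difference of 0.05 (limma adjusted p = 0.48). Fgfr3 and Ccne1 had been listed because PROX1 is known to induce them in culture.

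Valve genes were split. Tests were possible for 17 of 19, of which 9 rose in LECs and 8 fell, beside 34.9% and 32.0% of all tested genes. The median log2 difference of the valve genes was 0.44. The tight junction gene Cldn11 (73.4-fold), with 3295, 2386 and 2945 in LECs and 28.9 to 35.97 in VECs, and the planar polarity gene Celsr1 (17.0-fold) were higher, and Nfatc1, which acts with FOXC2 in valve formation, was 2.04-fold higher (limma adjusted p at most 5.9e-05). Cldn11 was 24.5-fold higher with normexp. Sema3a was well above background on VEC 4 (60.3) and not on VEC 2 (2.63) or VEC 3 (3.09), with 562 to 663 in LECs. It was 66.9-fold higher as measured (limma adjusted p = 0.0049), 180-fold without VEC 4, and at least 83.4-fold by its other probe. Within row 1, with 1 LEC array, it was 65.9-fold higher and did not pass (limma adjusted p = 0.095). Nfatc1 signals were 3001, 2975 and 3278 in LECs and 1359, 1185 and 1338 in VECs. The atypical cadherin gene Fat4 (10.7-fold) and the flow-responsive factors Klf2 (3.69-fold) and Klf4 (2.20-fold) were lower.

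Among 18 partner factors and cofactors, 7 rose in LECs, 9 fell and 2 missed the threshold (median log2 difference -0.32), beside 34.9% and 32.0% of all tested genes, so most of these factors were called in either direction, as most tested genes were. Zfpm2, which encodes the GATA cofactor FOG2, was 21.4-fold higher and its paralog Zfpm1, which encodes FOG1, 3.57-fold lower (limma adjusted p = 6.0e-06 and 4.4e-06). Zfpm2 signals were 1098, 833 and 1144 in LECs and 34.6, 35.3 and 54.7 in VECs, and 8.78-fold apart with normexp. The basic helix-loop-helix gene Lyl1 was 4.89-fold higher, and Epas1, which encodes HIF-2α, was 7.68-fold lower; Nfatc1 stands in this list and among the valve genes. Arterial and Notch genes were lower in 13 of 15 cases, with a median log2 difference of -2.82. COUP-TFII is known to repress some genes of this kind in venous endothelium, and the part of Nr2f2 in these differences was not tested. By the brightest probe of each gene, Flt1 was 59.04-fold, Cxcr4, well above background on 1 LEC array, 43.3-fold and the semaphorin receptor gene Nrp1 39.8-fold lower. Other probes gave 87.4-fold and 76.6-fold for Nrp1 and at least 5.32-fold for Cxcr4, which was 9.96-fold lower with normexp. Unc5b (1.73-fold) and Notch1 (1.204-fold) were higher. Notch1 was close to the threshold (limma adjusted p = 0.048) and did not pass without LEC 6, LEC 7, VEC 3 or VEC 4, which left 1 higher gene in the list; within row 1 of the slide, with 1 LEC array, Unc5b was 1.75-fold higher and did not pass (limma adjusted p = 0.079). The lists were chosen with results of these data known. Flt1 and Nrp1, and of the genes linked to PROX1 Reln, Mmrn1, Pdpn, Flt4, Lyve1 and Ccl21a, also serve as markers of the sorted populations. Cldn5 among the genes linked to PROX1 and Erg among the partner factors are pan-endothelial markers as well.

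**Figure D4:**
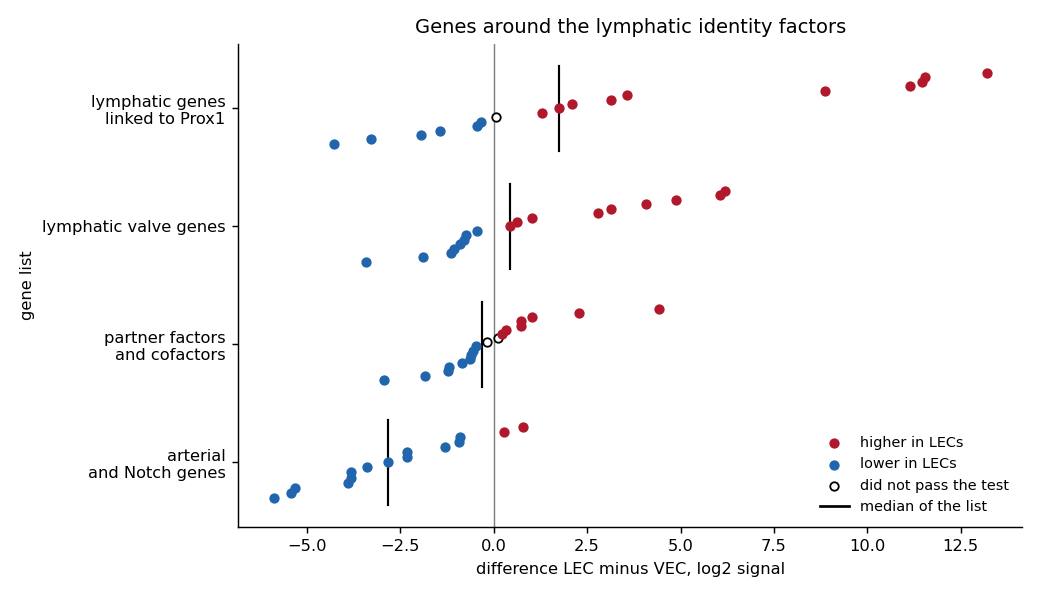
Log2 difference between LECs and VECs of the tested genes of 4 lists; each point is a gene, filled red where higher in LECs, blue where lower and open where the test was not passed, and black lines are medians. Medians lie at 1.74, 0.44, -0.32 and -2.82 from top to bottom, and only the arterial and Notch list lies almost wholly below 0.

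Genes of other cells that use some of these factors were measured beside them. The counts below stand beside 34.9% of all tested genes called higher in LECs and 32.0% called lower. Macrophages and T cells can express Maf: of 11 tested myeloid markers 7 rose in LECs, among them Aif1 (7.20-fold), Adgre1 (5.98-fold), Lyz2 (4.48-fold), C1qc (4.26-fold), C1qa (3.97-fold) and Cx3cr1 (3.53-fold). The 3 that fell were Mertk (5.38-fold), Cd68 (2.23-fold) and Itgam (1.16-fold). Adgre1, C1qa and Cx3cr1 were well above background on 2 VEC arrays and Lyz2 on 1. Over the alternatives, the lowest log2 differences were 0.66 for Adgre1, 0.52 for Lyz2 and 0.55 for Cx3cr1. Each missed the threshold in at least 1 alternative, as did C1qa, C1qb and C1qc, and Itgam in 10 of 21. Aif1, Mertk and Cd68 kept their calls. Ptprc, which encodes CD45, was well above background on 2 arrays per group and was not tested. The summed signals of the myeloid markers were 27743 to 33158 in LECs and 28477 to 31935 in VECs, most of it from Itgam, and without Itgam 2326 to 2649 in LECs and 1922 to 2260 in VECs. Of 4 tested T cell markers, Cd2 (58.8-fold, and 20.4-fold with normexp), Lck (2.90-fold) and Cd3d (2.23-fold) were higher in LECs and Cd3e was lower, with summed signals of 3504 to 4708 and 926 to 1221. Fcgr1 and Cd3g were the only members of these lists well above background on none of the arrays, and the part of these cells in the Maf difference was not tested. For Gata2, 3 of 9 mast cell markers were tested and 1 was lower in LECs (Mcpt4, at least 3.84-fold), with summed signals of 943 to 1108 in LECs and 746 to 1107 in VECs. Mcpt4 was 2.12-fold lower with normexp. Kit and Tpsb2 were well above background on all 6 arrays and did not pass (log2 differences -0.20 and 0.06, limma adjusted p = 0.098 and 0.77), Mcpt1 and Fcer1a were so on 1 VEC array each and Cpa3 on LEC 8 (175), and Mcpt2, Ms4a2 and Cma1 on none. The part of mast cells in the Gata2 difference was not tested. Mesenchymal cells use Foxc1, Foxc2 and the COUP-TF genes. Of the 9 tested among 11 markers, Dcn (6.33-fold, and 3.29-fold with normexp) and Col1a1 (1.67-fold) rose in LECs and 3 fell (Acta2, Myh11 and Cspg4). All of these but Dcn missed the threshold in some alternatives. The summed signals were 8530 to 9863 in LECs and 9272 to 11473 in VECs. Most of this came from Acta2, at 6844 to 7914 in LECs and 7563 to 9981 in VECs. Pdgfra and Lum were well above background on at most 1 array per group, and the part of mesenchymal cells was not tested. Prox1 is also used by enteroendocrine cells and enteric neurons: neither Neurod1 nor Pax6 was well above background on an array, and Chgb, the 1 of 4 enteroendocrine markers that was tested, had a log2 difference of 1.47 (limma adjusted p = 0.36), with summed signals of 56.5 to 107 in LECs and 19.6 to 140 in VECs. Of 6 neuronal and glial markers 4 were higher in LECs and 1 was lower (Uchl1, 6.75-fold), the former with S100b (15.5-fold, and 5.57-fold with normexp), with summed signals of 2033 to 2528 in LECs and 4507 to 4893 in VECs, and their part in the Prox1 difference was not tested. Of the epithelial markers, 5 of 7 were tested, 1 rose and 2 fell in LECs, with summed signals of 2973 to 3019 and 1345 to 2500.

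The genes most like a factor over the 6 arrays, by Euclidean distance between gene-centered log2 signals, were Pcsk6 (distance 0.30), Lrrn4cl (0.39) and Islr2 (0.45) for Prox1. For Sox18 they were Rras2, Oga and Spry1 (0.059 to 0.096), and for Gata2 Camkk2, Iqgap1 and Rasal2 (0.093 to 0.11). Since the arrays form 2 groups, this measure mostly finds genes with a like difference between them: 41.4-fold for Pcsk6 beside 41.3-fold for Prox1.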

How the data were processed

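Sorted VECs and LECs were each measured on 3 arrays, with 1 color. The authors deposited spot intensities from Agilent Feature Extraction 12.0.3.1, background-subtracted and not scaled between arrays, and a table of log2 values, which differed from the log2 intensity by 1 constant per array (within 0.01) in at least 99.9% of probes. Outlier spots (97 to 122 per array) were set missing, spots of a probe were averaged, and the 75th percentile was subtracted. Testing required a probe to be well above background on the 3 arrays of one group or both. lmFit and eBayes of limma 3.58.1 (R 4.3.3) were used, and of several tested probes the one brightest on average stood for the gene. Where no array of the dimmer group was well above background, the fold given is a bound, with the brighter group's mean set against the higher, per array, of the probe's signal and the lowest signal well above background. RefSeq accessions (GRCm38.p6, names only) named 32994 probes. The number of arrays limits the precision. Members and lists were chosen with earlier results of these data known. Named were all members, the up to 3 largest differences per direction of each other list (of these, examples are given, with a few genes on which a result turns, added after their values were seen), and the 3 genes most like Prox1, Sox18 and Gata2. The methods name Gene Spring GX and an analysis of variance, run here as an alternative; no other fit followed the study. The experiments other than arrays were not analysed here, and values of some listed genes are not reported here.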

Additional observations from a re-analysis of the deposited data

How the results depend on the processing

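Over 21 alternatives (normexp on the median signals, 3 scalings, 2 filters on dim probes, a floor under dim signals, keeping outlier spots, an intensity trend in limma, the deposited log2 table, the methods' one-way test, averaging a gene's probes, the slide row as a block or row 1 alone, leaving out each replicate, and a threshold of 0.01), 189 of 189 values of the 9 factors kept their direction and 187 their side of the threshold. The exceptions were Sox18 without scaling between arrays (-0.22, limma adjusted p = 0.22) and Sox18 within slide row 1 (-0.43, limma adjusted p = 0.077), which left 1 factor lower in LECs in place of 2; the cause was not tested. The direction of the 9 factors could not change under the 0.01 threshold, the intensity trend, the one-way test or the filters. Nor could it under the floor or the averaging of probes, since all of these left each difference as it was. Without scaling, 6916 probes were lower in LECs in place of 11066, and 65.1% of called probes were higher in place of 48.8%. Row 2 of the slide held LEC arrays only, so the block rests on row 1 as well; Prox1 was then 5.47, Tbx1 10.56 and Gata2 -1.95. Of the other lists, the count of higher arterial and Notch genes fell from 2 to 1 in 9 alternatives and to 0 within row 1, and that of higher relatives from 2 to 1 within row 1 and when probes had to be well above background on all 6 arrays. No paired analysis was possible because the groups share no replicate numbers. Row 1 alone leaves 1 LEC array, assumed to vary like the VEC arrays. Background limits all folds over dim signals, those of Tbx1 and Maf and of dim list genes. With normexp, the offset of 50 units also lowers such folds. The steps between factors and the sums without Thy1 or Itgam were added after seeing the data.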

Other observations

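Genes next to the factors in the RefSeq gene order were also measured; they were chosen after their values were seen. The long noncoding RNA gene B130024G19Rik, the neighbor of Nr2f2, gave signals of 2051, 1615 and 2045 in LECs and 51.6, 39.2 and 71.8 in VECs, 30.8-fold apart (log2 difference 4.94, standard error 0.18, limma adjusted p = 4.7e-06). Beside Foxc2, the genes did not share a direction: Foxf1 and the long noncoding RNA gene Fendrr were 25.8-fold and 28.8-fold lower in LECs, with Fendrr at 89.9, 130 and 145 in LECs and 2676, 2613 and 3639 in VECs, whereas Mthfsd was 2.17-fold and Foxl1 at least 4.79-fold higher. Smyd2, the nearest tested gene beside Prox1 on one side, was 6.20-fold higher in LECs, at 17662, 13651 and 17271 against 2278, 2092 and 2288 in VECs (limma adjusted p = 1.7e-06). The tested neighbors of Sox18 included Tcea2, 1.86-fold higher, and those of Gata2 included Ruvbl1, 1.36-fold higher (limma adjusted p = 5.3e-04 and 0.0018), both opposite in direction to the factor beside them.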
